A study of Mus musculus with 11 samples.

Results

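Liver transcripts of 10 genes that handle glutamine, glutamate and proline were measured in diabetic db/db mice, which are obese because they lack a working leptin receptor, after an antibody against the glucagon receptor or after saline. The genes were Gls2, Glul, Glud1, Slc25a22, Slc1a2, Prodh, Aldh4a1, Prodh2, Gclc and Gclm. They were found as the array probes whose RefSeq accession is a transcript of 1 of these genes, which gave 13 probes among the 39429 gene probes of the array, and 10 of the 20144 genes that could be named. All 13 probes passed the filter on dim signals.

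The treated group was 6 liver samples of db/db mice given 3c7.v44 mAb, an antibody against the glucagon receptor (GCGR), at 5 mg/kg (anti-GCGR replicates 1 to 6). The comparison group was 5 liver samples of db/db mice given phosphate-buffered saline (PBS replicates 1, 3, 4, 5 and 6). All mice of both groups carried the db/db genotype, and the labels give no age, sex or time after dosing. Each liver RNA was labelled with the dye Cy5 and hybridised to its own two-colour Agilent array against the same pooled mouse reference RNA in Cy3, so that every value is log2 of liver over reference. Values of different probes were not set against each other as levels.

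The liver splits nitrogen handling between zones. Hepatocytes near the portal vein take the amide nitrogen off glutamine with the liver glutaminase GLS2 and feed it to urea, and a thin layer of hepatocytes around the central vein binds what ammonia is left into glutamine with glutamine synthetase, the product of Glul. Proline is broken down in mitochondria to glutamate by proline dehydrogenase and then by the aldehyde dehydrogenase ALDH4A1, and glutamate is also a building block of glutathione. Glucagon, the hormone of fasting, acts through its receptor and cyclic AMP and is known to raise hepatic amino acid breakdown.

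Signal and arrays set limits on what follows. The share of gene spots whose Cy5 signal stood well above background was 66.2% to 77.1% per array, and precision is set by the number of arrays. Whether the samples are separate mice is not given in the labels, so p-values cover only the spread between these samples, which may be technical. The array labelled anti-GCGR replicate 5 stood apart: over those of the 15974 genes tested with a value on every array, its mean correlation was 0.9817 with the other antibody arrays and 0.9912 with the PBS arrays, while each of the other 5 antibody arrays correlated more with its own group (0.9886 to 0.9914) than with PBS (0.9776 to 0.9841). Results for the 10 genes and the list counts are therefore given with it and without it. That array was singled out from these same values for its likeness to PBS, so leaving it out tends to widen the group differences. The p-values and counts without it are therefore a description and no independent support for the calls. Over all genes, 1434 passed as higher and 904 as lower in the antibody group (limma, Benjamini-Hochberg adjusted p under 0.05), against 581 and 2145 with median centring of the arrays, 977 and 1185 with the scanner software's ratio and 1172 and 1148 with Cy5 alone.

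Of the 10 genes, 4 fell with the antibody, none rose and 6 did not pass the test, where 14.6% of all genes tested passed in either direction, 5.66% as lower and 8.98% as higher (limma). The fallers were Aldh4a1 and Gls2 at 1.66-fold and 1.64-fold lower, and Slc1a2 and Prodh at 1.38-fold and 1.35-fold lower. The median log2 fold change of the 10 genes was -0.17, against 0.01 over all genes tested. Without anti-GCGR replicate 5 the same 4 genes were called lower and Glul was called higher, where 24.2% of all genes passed. The scanner software's ratio, where 13.5% of all genes passed, gave 2 calls, Gls2 and Aldh4a1. With all arrays the groups overlapped for every 1 of the 10 genes, where 6.59% of all genes had groups that did not overlap. Without that array they did not overlap for 3 of them, Gls2, Aldh4a1 and Glul, where 16.9% of all genes did so.

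**Figure D1:**
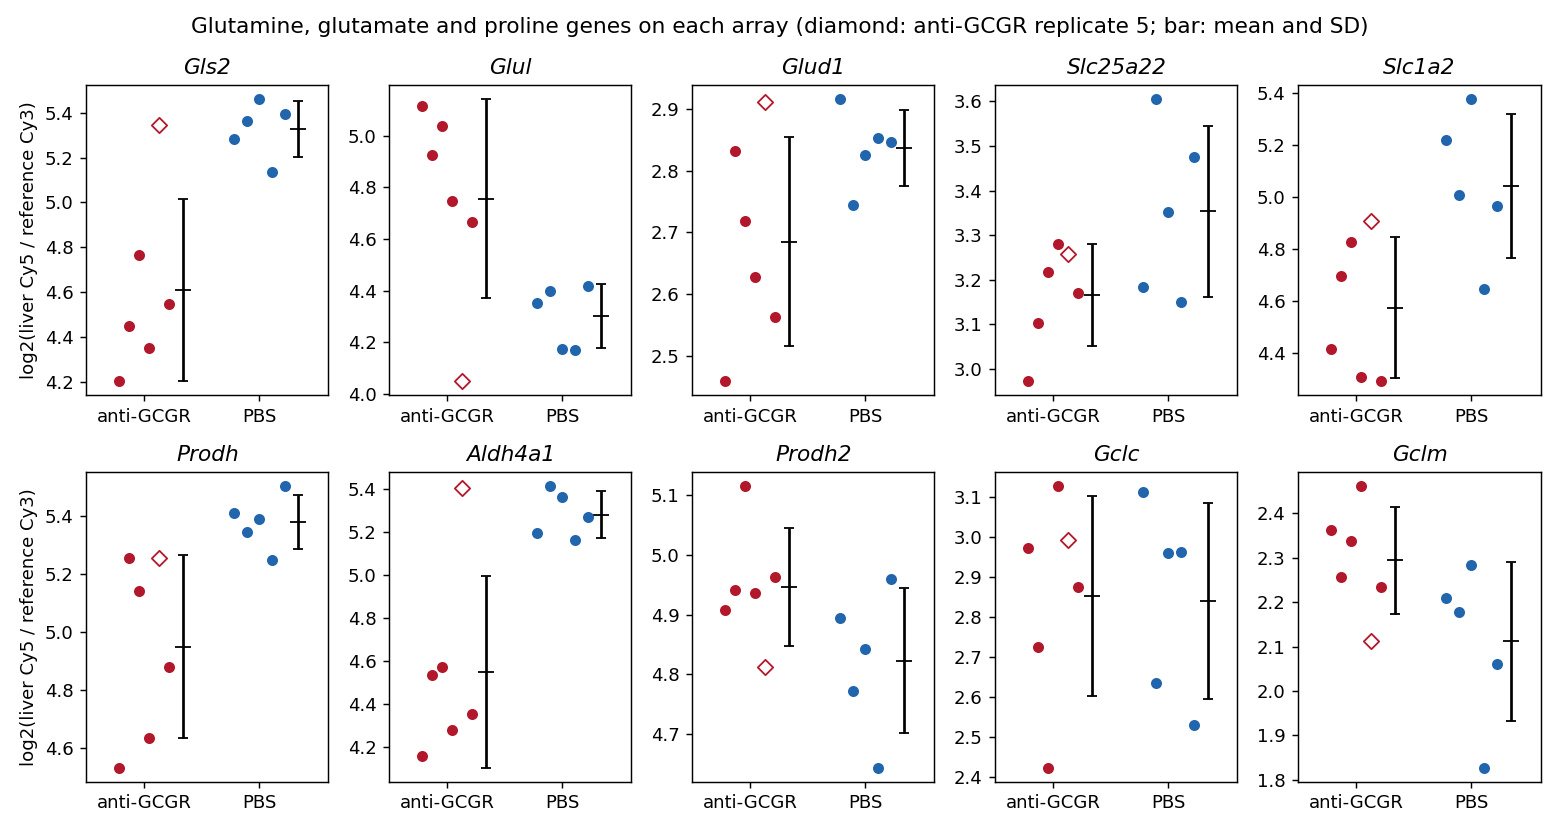
Each panel plots log2 of liver (Cy5) over reference (Cy3) for 1 gene on its brightest kept probe, with a point for each array, anti-GCGR left of PBS, and the mean and SD beside the points. The open diamond, anti-GCGR replicate 5, sits at 5.34 for Gls2, 5.40 for Aldh4a1 and 4.05 for Glul, away from the other antibody arrays. The vertical axes differ between panels and do not start at 0.

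Gls2, the liver glutaminase that releases ammonia from glutamine, read 4.21, 4.45, 4.77, 4.35, 5.34 and 4.55 on anti-GCGR replicates 1 to 6, and 5.28, 5.36, 5.46, 5.13 and 5.39 on PBS replicates 1, 3, 4, 5 and 6. On 5 of the 6 antibody arrays it was below every PBS array, and replicate 5 lay inside the PBS range. Gls2 averaged 4.61 ± 0.41 with the antibody (SD, n = 6) and 5.33 ± 0.13 with PBS (SD, n = 5). The log2 difference was -0.72 with an SE of 0.16 (limma adjusted p = 0.0151). The exact permutation p, two-sided over 462 splits of the arrays, was 0.0108. On this probe the Cy3 reference signal was also lower with the antibody, by 0.79 between the group means, and Cy5 alone gave -1.46, so the size of the change depended on whether the ratio was used. The call was made in all 11 fits that each left out 1 array, and leaving out anti-GCGR replicate 5 gave -0.86 (limma adjusted p = 0.000115).

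Glul, glutamine synthetase, read 5.11, 4.92, 5.04, 4.75, 4.05 and 4.67 on anti-GCGR replicates 1 to 6, and 4.35, 4.40, 4.17, 4.17 and 4.42 on the 5 PBS arrays. On 5 antibody arrays Glul was above every PBS array, and on replicate 5 it was below every PBS array. With all arrays the log2 fold change was 0.45 ± 0.16 (SE, 95% interval 0.12 to 0.79) and did not pass over all genes (limma adjusted p = 0.0672, exact permutation p = 0.0411). Without anti-GCGR replicate 5 it was 0.60 and passed (limma adjusted p = 0.000638), and in the other 10 fits with 1 array left out it did not pass.

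Between these enzymes stand Glud1, glutamate dehydrogenase, which splits glutamate to oxoglutarate and ammonia, and Slc25a22, a carrier that moves glutamate into mitochondria. For Glud1 the antibody arrays lay between 2.46 and 2.91 and the PBS arrays between 2.74 and 2.92 on its brightest probe. Its log2 fold change was -0.15 ± 0.08 (SE, 95% interval -0.32 to 0.01, limma adjusted p = 0.202), and its other probe gave -0.12. Slc25a22 lay between 2.97 and 3.28 with the antibody and between 3.15 and 3.61 with PBS, a log2 fold change of -0.19 ± 0.09 (95% interval -0.37 to 0, limma adjusted p = 0.165). Neither passed in any of the 11 fits with 1 array left out, and Slc25a22 was called lower with median centring (-0.33, limma adjusted p = 0.0236, with 17.1% of all genes called).

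Slc1a2 encodes a high-affinity glutamate transporter of the plasma membrane, best known from astrocytes and found in hepatocytes near the central vein, where it takes up glutamate. On its brightest probe it read 4.42, 4.70, 4.83, 4.31, 4.91 and 4.29 on anti-GCGR replicates 1 to 6, and 5.22, 5.01, 5.38, 4.65 and 4.97 on PBS replicates 1, 3, 4, 5 and 6. Only 3 antibody arrays were below every PBS array, and PBS replicate 5 was the lowest of its group. With all arrays its log2 fold change was -0.47 ± 0.14 (SE, limma adjusted p = 0.0446, exact permutation p = 0.0260). The call lay near the threshold. It was made without anti-GCGR replicate 3 or 5 or PBS replicate 5 (log2 fold change -0.52, -0.54 and -0.57) and lost in the other 8 fits with 1 array left out (-0.39 to -0.49, limma adjusted p = 0.0589 to 0.108). In each of these 8 fits fewer of all genes passed too. Without PBS replicate 1 they were 782 higher and 458 lower, against 1434 and 904 with all arrays.

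Of the 2 probes designed to another Slc1a2 transcript, the brighter fell (log2 difference -0.76, SE 0.15, limma adjusted p = 0.00993 over all probes). The dimmer was at -0.20 (adjusted p = 0.0755), and was kept through the PBS group, being well above background in Cy5 on 5 PBS arrays and on 2 antibody arrays, so it says nothing of the direction. Both of these probes were not well above background in Cy3 on any array. The brightest probe was at 0.01 with the scanner software's ratio (limma adjusted p = 0.950), so its direction depended on how the dyes were processed.

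Prodh and Aldh4a1 encode the enzymes of successive steps from proline to glutamate. Prodh, proline dehydrogenase, read 4.53, 5.26, 5.14, 4.64, 5.26 and 4.88 on anti-GCGR replicates 1 to 6, and 5.41, 5.35, 5.39, 5.25 and 5.51 on PBS replicates 1, 3, 4, 5 and 6. Replicates 2 and 5 of the antibody group reached the lowest PBS array and the other 4 were below it. Its log2 fold change was -0.43 ± 0.13 (SE, limma adjusted p = 0.0419, exact permutation p = 0.0195). The call was made without anti-GCGR replicate 2, 3 or 5 (-0.49, -0.47 and -0.49) and lost in the other 8 fits with 1 array left out (-0.35 to -0.46, limma adjusted p = 0.0503 to 0.0887).

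Aldh4a1, which oxidises the product of proline dehydrogenase to glutamate, read 4.16, 4.54, 4.57, 4.28, 5.40 and 4.36 on anti-GCGR replicates 1 to 6, and 5.19, 5.41, 5.36, 5.16 and 5.27 on the PBS arrays. On 5 antibody arrays it was below every PBS array, and replicate 5 was again inside the PBS range. It averaged 4.55 ± 0.45 with the antibody (SD, n = 6) and 5.28 ± 0.11 with PBS (SD, n = 5). The log2 difference was -0.73 with an SE of 0.18 (limma adjusted p = 0.0182, exact permutation p = 0.0130), a call made in all 11 fits with 1 array left out. Without anti-GCGR replicate 5 it was at -0.90, or 1.86-fold lower (limma adjusted p = 5.2e-05).

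Prodh2 acts on hydroxyproline, which comes from collagen and is broken down by a parallel route that shares ALDH4A1. Its antibody arrays lay between 4.81 and 5.11 and its PBS arrays between 4.64 and 4.96. The log2 fold change of Prodh2 was 0.12 ± 0.07 (SE, 95% interval -0.02 to 0.27, limma adjusted p = 0.238), and it did not pass in any fit with 1 array left out. The difference between the fold changes of Prodh and Prodh2 was not tested.

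The promoters of 3 of the 4 genes called lower are shown for reference beside their values. RefSeq's table for GRCm38.p6 gave windows for 8 of the 10 genes, from 250 bases before to 50 after a transcript start. A script searched both strands for the cyclic AMP response element TGACGTCA, its half-site TGACG (which lies within it), the TCF/LEF site CTTTGAT, the antioxidant response element core TGACNNNGC (which can overlap the half-site) and TATAAA. Of 32851 promoters of the same length, 1.79%, 20.8%, 3.73%, 12.4% and 13.6% held them, in that order. Capitals mark matches, and a match is a description of the letters only. The windows are chr16:18089141-18089440 on the minus strand for Prodh, chr4:139622644-139622943 on the plus strand for Aldh4a1 and chr2:102706188-102706487 on the plus strand for Slc1a2, which lies inside the annotated gene.
Prodh: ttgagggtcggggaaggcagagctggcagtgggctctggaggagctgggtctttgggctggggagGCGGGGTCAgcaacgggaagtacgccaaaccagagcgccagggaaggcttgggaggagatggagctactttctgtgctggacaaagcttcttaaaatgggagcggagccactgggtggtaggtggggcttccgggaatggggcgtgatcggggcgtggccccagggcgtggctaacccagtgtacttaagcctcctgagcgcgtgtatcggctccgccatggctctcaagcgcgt
Aldh4a1: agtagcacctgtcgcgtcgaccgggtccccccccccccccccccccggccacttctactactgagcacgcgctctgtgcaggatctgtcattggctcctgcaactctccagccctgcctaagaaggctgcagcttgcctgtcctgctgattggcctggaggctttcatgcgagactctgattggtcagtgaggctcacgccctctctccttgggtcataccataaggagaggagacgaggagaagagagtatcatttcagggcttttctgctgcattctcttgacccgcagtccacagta
Slc1a2: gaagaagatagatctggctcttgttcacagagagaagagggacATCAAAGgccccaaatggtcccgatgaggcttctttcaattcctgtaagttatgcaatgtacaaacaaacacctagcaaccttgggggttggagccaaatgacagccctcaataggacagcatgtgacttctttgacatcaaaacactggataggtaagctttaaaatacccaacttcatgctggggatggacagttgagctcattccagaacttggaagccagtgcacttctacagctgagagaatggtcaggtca
The Prodh window held 1 antioxidant core, the Slc1a2 window 1 TCF/LEF site, and the Aldh4a1 window none of the 5 motifs. None of the 3 windows held the cyclic AMP element or its half-site.

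Gclc and Gclm encode the catalytic and modifier subunits of glutamate cysteine ligase, which joins glutamate to cysteine as the rate-limiting step of glutathione synthesis. Gclc lay between 2.42 and 3.13 on the antibody arrays and between 2.53 and 3.11 on the PBS arrays, so the groups covered the same range. Its log2 fold change was 0.01 ± 0.13 (SE, 95% interval -0.27 to 0.295, limma adjusted p = 0.963), and its sign turned with the scanner software's ratio, with median centring and without anti-GCGR replicate 1, 4 or 5 or PBS replicate 3 or 6. Gclm lay between 2.11 and 2.46 with the antibody and between 1.83 and 2.28 with PBS. Its log2 fold change was 0.18 ± 0.08 (95% interval 0 to 0.36, limma adjusted p = 0.164), and 3 of the 6 antibody arrays were above every PBS array.

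**Figure D2:**
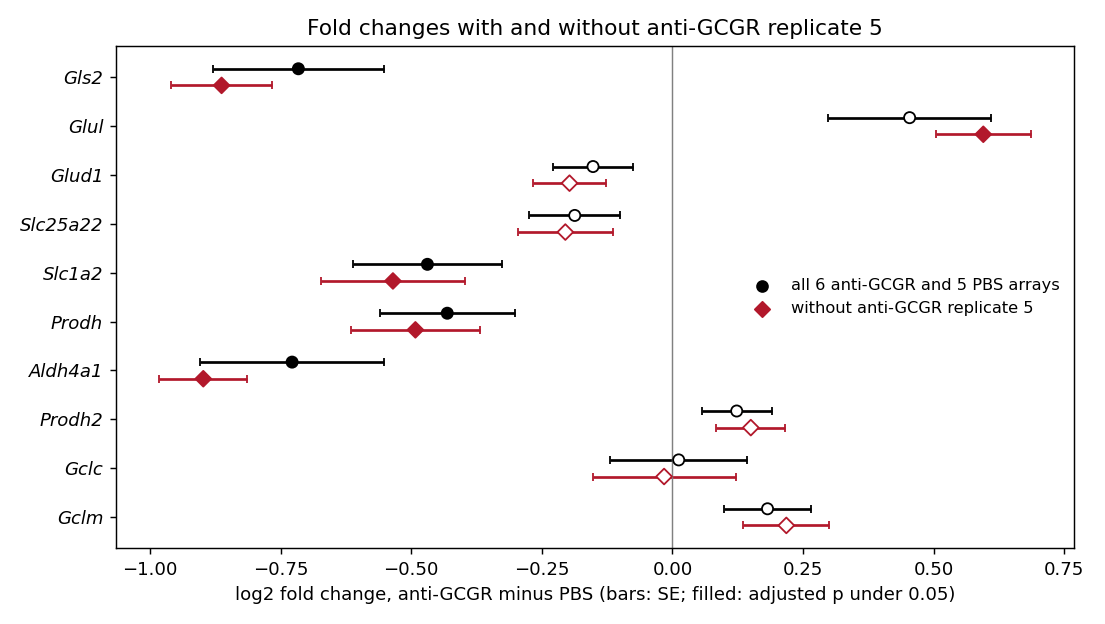
Log2 fold changes (anti-GCGR minus PBS) of the 10 genes with their standard errors, with all arrays (circles) and without anti-GCGR replicate 5 (diamonds), filled where the limma adjusted p was under 0.05. Gls2 and Aldh4a1 lie lowest, at -0.72 and -0.73, and Glul is filled only without that array, at 0.60.

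By the barcodes in the file headers the arrays lay on 3 slides, each holding both groups. Slides 1 and 3 each held 2 antibody and 2 PBS arrays, and slide 2 held 2 antibody arrays and 1 PBS array. Within slides 1, 2 and 3 the difference between the group means was -1.09, -0.24 and -0.72 for Gls2 and -1.06, -0.19 and -0.88 for Aldh4a1. It was -0.82, 0.01 and -0.415 for Prodh, -0.935, 0.15 and -0.43 for Slc1a2, and 0.67, 0.32 and 0.44 for Glul. Slide 2 held anti-GCGR replicate 5. The other arrays of that slide, anti-GCGR replicate 2 and PBS replicate 5, read 4.45 and 5.13 for Gls2 and 4.54 and 5.16 for Aldh4a1. They read 5.26 and 5.25 for Prodh, 4.70 and 4.65 for Slc1a2, and 4.92 and 4.17 for Glul. Prodh and Slc1a2 thus showed no fall on slide 2 without replicate 5 either. With slide as a block, where 17.5% of all genes passed, Glul was called higher (0.50, limma adjusted p = 0.0417), Gclm was called higher (0.21, adjusted p = 0.0268), and the call for Slc1a2 was lost (-0.47, adjusted p = 0.0601).

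The dyes were also read separately, since every array carried the same reference RNA in Cy3. On the Gls2 probe the Cy3 signal was 9.64, 9.72, 9.90, 9.53, 10.67 and 9.74 on anti-GCGR replicates 1 to 6 and 10.47, 10.84, 10.63, 10.75 and 10.62 on PBS replicates 1, 3, 4, 5 and 6 (log2, quantile scaled). The reference signal was thus lower on the same 5 antibody arrays on which liver Gls2 was lower, by 0.79 between the group means, a size reached by 18 of the 15974 genes, Gls2 included. Cy5 alone gave a log2 fold change of -1.46 for Gls2 (limma adjusted p = 0.0118, with 14.5% of all genes called), and the scanner software's ratio gave -0.62 (adjusted p = 0.0293). On the brightest Slc1a2 probe the difference between the group means was -0.94 for Cy5 against -0.35 for Cy3. For the other 8 genes the Cy3 difference lay between -0.13 and 0.105, and Aldh4a1 had a Cy5 difference of -0.75 against a Cy3 difference of -0.01. The part of the Cy3 signal in the ratios of Gls2 and Slc1a2 was not tested.

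**Figure D3:**
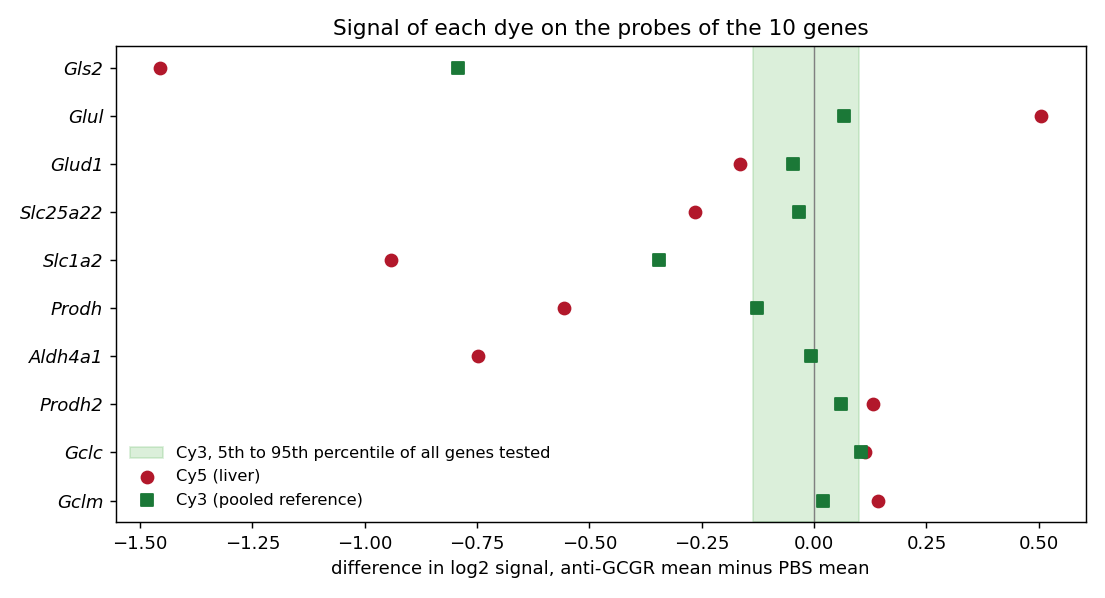
Difference between the anti-GCGR and PBS group means of the log2 signal in Cy5 (liver, circles) and Cy3 (pooled reference, squares) for the brightest kept probe of each gene. The band spans the 5th to 95th percentile of the Cy3 difference over all genes tested, -0.14 to 0.10, and the squares of Gls2 at -0.79 and Slc1a2 at -0.35 lie well outside it, with Gclc at its upper edge (0.105).

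Related pathways were described by lists, counting genes of the fit over all genes. The counts are to be read against the 14.6% of all genes that passed with all arrays (5.66% lower, 8.98% higher) and the 24.2% that passed without anti-GCGR replicate 5 (9.85% lower, 14.4% higher). With any 1 other array left out fewer of all genes passed than with all arrays. The fewest were 782 higher and 458 lower, without PBS replicate 1. Of 17 other measured enzymes that make or use glutamine and glutamate, 3 fell, none rose and 14 did not pass, against 5.66% of all genes lower, with a median log2 fold change of -0.12. The fallers were Got1, the cytosolic aspartate aminotransferase (-2.01 ± 0.51, SE), Kyat3, an aminotransferase of kynurenine and glutamine (-1.07 ± 0.20), and Abat, which breaks down the transmitter GABA (-0.47 ± 0.09). In the fit without anti-GCGR replicate 5, 6 of these enzymes fell, where 9.85% of all genes did. Among 10 amidotransferases, which take nitrogen from glutamine for nucleotides, hexosamines, asparagine and NAD, 3 rose and none fell (median 0.08), against 8.98% of all genes higher. When anti-GCGR replicate 5 was left out, 3 rose and 1 fell, and the balance changed with the scaling: 1 rose and 2 fell with median centring, 2 rose and 1 fell with Cy5 alone, and 3 rose and 1 fell with the scanner software's ratio. Of all genes, 3.64% were higher and 13.4% lower with median centring and 7.34% and 7.19% with Cy5 alone. With the scanner software's ratio 6.12% were higher and 7.42% lower. The risers with all arrays were the CTP synthases Ctps (0.95 ± 0.17, with no overlap between the groups) and Ctps2 (0.47 ± 0.13). The NAD synthetase Nadsyn1 (0.27 ± 0.06) rose as well. Ctps2 had 2 kept probes, and with their mean it was at 0.27 and did not pass (limma adjusted p = 0.102). With the mean of kept probes 2 amidotransferases rose and 1 fell. With median centring neither Ctps2 (0.37) nor Nadsyn1 (0.16) passed.

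In 14 other measured genes of proline and hydroxyproline metabolism, 2 fell, 2 rose and 10 did not pass (median 0.06), where 14.6% of all genes passed. Leaving out anti-GCGR replicate 5 gave 4 higher and 2 lower, where 24.2% of all genes passed. Oat, ornithine aminotransferase, whose product is the same intermediate that proline dehydrogenase forms, fell (log2 fold change -2.08 ± 0.46, SE, limma adjusted p = 0.0132). It averaged 2.68 ± 1.19 with the antibody (SD, n = 6), with replicate 5 at 5.03, and 4.76 ± 0.25 with PBS (SD, n = 5). Lap3, a leucine aminopeptidase that releases amino acids from peptides, fell by 0.44 (SE 0.14). Grhpr, the glyoxylate reductase at the end of hydroxyproline breakdown, rose (0.61 ± 0.12). The count was 2 in place of 4 without any 1 of 9 arrays, every array other than anti-GCGR replicates 2 and 5.

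Of 16 measured transporters of glutamine, glutamate, aspartate and proline, 3 fell, 2 rose and 11 did not pass (median 0.05), against 5.66% of all genes lower and 8.98% higher. The counts were also 3 and 2 without anti-GCGR replicate 5. The plasma membrane carriers Slc38a2 (-0.55 ± 0.08, with no overlap), Slc38a4 (-0.50 ± 0.16) and Slc1a4 (-0.39 ± 0.09), which take up neutral amino acids, fell. The mitochondrial oxoglutarate carrier Slc25a11 (0.28 ± 0.05, with no overlap) and the exchanger Slc7a8 (0.42 ± 0.10) rose. Without PBS replicate 1 the count was 3 in place of 5.

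Genes of glutathione metabolism and of NRF2, the factor that induces Gclc and Gclm, had 5 of 21 members higher, none lower and 16 not passing (median 0.11), against 8.98% of all genes higher. The largest rises were Cbr3, a carbonyl reductase (1.65 ± 0.36), Srxn1, sulfiredoxin (0.84 ± 0.15, with no overlap), and Ggct, a cyclotransferase of glutathione breakdown (0.47 ± 0.09, with no overlap). Gss, glutathione synthetase, which acts in the step after that of Gclc and Gclm (0.28 ± 0.08), and G6pdx, which makes NADPH (0.24 ± 0.07), are named after their values were seen. Cbr3 averaged -0.57 ± 0.93 with the antibody (SD, n = 6), with replicate 5 at -2.17, and -2.22 ± 0.14 with PBS (SD, n = 5). Without anti-GCGR replicate 5 the list had 7 higher and 1 lower, against 14.4% and 9.85% of all genes, and without anti-GCGR replicate 4 or 6 or PBS replicate 3, 4 or 6 it had 3 higher.

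**Figure D4:**
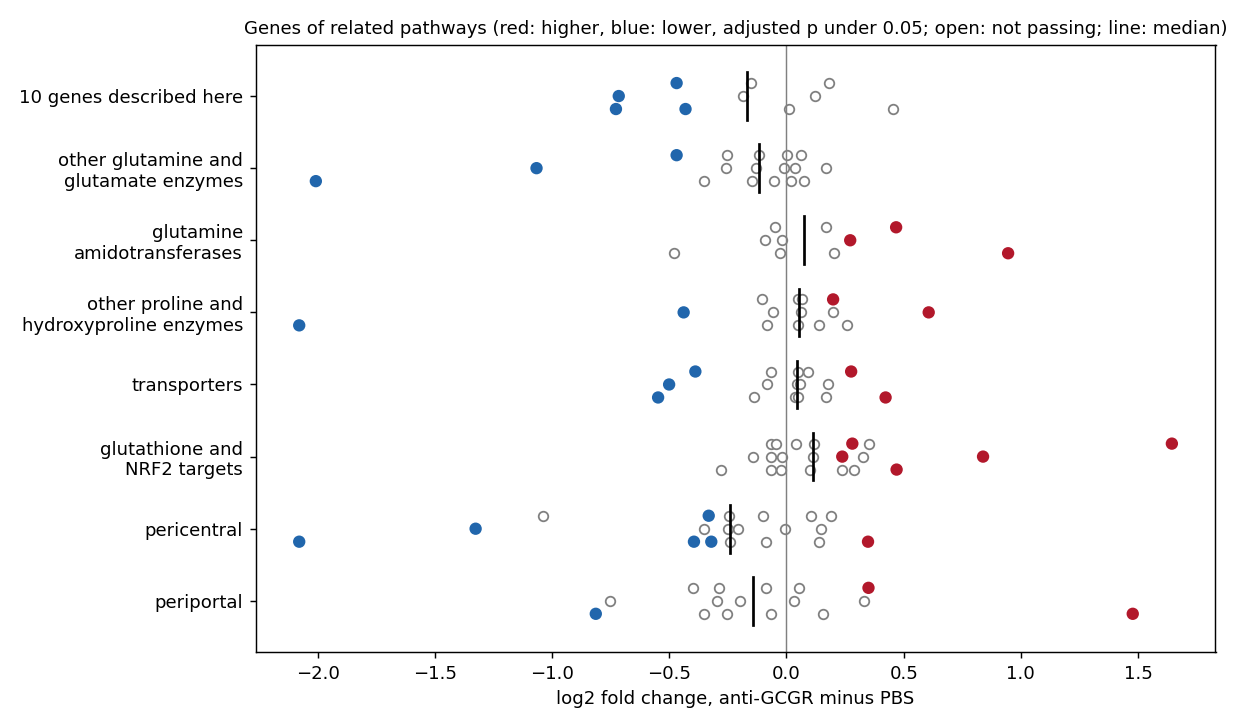
Log2 fold changes (anti-GCGR minus PBS) of the measured genes of each list, one point per gene, red where higher and blue where lower at a limma adjusted p under 0.05, open where not passing, with the list median as a line. The 10 genes have 4 blue points and no red one, and the glutathione and NRF2 list has 5 red points and no blue one.

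Zonal genes were counted because Glul and Slc1a2 belong to hepatocytes near the central vein and Gls2 to those near the portal vein. Of 19 pericentral genes 5 fell, 1 rose and 13 did not pass (median -0.24), against 5.66% of all genes lower. With anti-GCGR replicate 5 left out, 8 fell and 1 rose, against 9.85% of all genes lower. The falls were led by Oat, the phosphatase Lhpp (-1.33 ± 0.29) and the cation transporter Slc22a3 (-0.395 ± 0.12). With the scanner software's ratio Slc22a3 was at -0.94 and did not pass (limma adjusted p = 0.163). The riser with all arrays was the tight junction protein Cldn2 (0.35 ± 0.09, and -0.12 with the scanner software's ratio). Without anti-GCGR replicate 4 or PBS replicate 1 or 4 the pericentral count was 3 in place of 6. Of 16 periportal genes 1 fell, 2 rose and 13 did not pass (median -0.14), where 14.6% of all genes passed. The balance turned with the scaling: 9 fell and 1 rose with median centring, 6 fell and 1 rose with Cy5 alone, and 2 fell and none rose with the scanner software's ratio. The balance over all genes moved as well. With median centring 13.4% were lower and 3.64% higher. The shares were 7.19% and 7.34% with Cy5 alone and 7.42% and 6.12% with the scanner software's ratio. In the first periportal count the urea cycle enzyme Ass1 fell (-0.81 ± 0.24). The apolipoprotein Apoa4 (1.48 ± 0.44) and the lipid droplet enzyme Hsd17b13 (0.35 ± 0.10) rose in it. With the scanner software's ratio Apoa4 was at -0.29 and Hsd17b13 at 0.12, and neither passed. Without anti-GCGR replicate 5, 8 periportal genes fell and 3 rose, against 9.85% and 14.4% of all genes. No periportal gene passed without any 1 of anti-GCGR replicates 1, 2, 3, 4 and 6 or PBS replicates 1, 3 and 6, and 1 passed without PBS replicate 4.

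Some of these single genes also lost their call when 1 array was left out. Fewer of all genes passed in each such fit except that without anti-GCGR replicate 5. When each of the 11 arrays was omitted in turn, Lap3, Slc38a4 and Ass1 passed only without anti-GCGR replicate 5 (-0.56, -0.62 and -1.02). Apoa4 passed only without anti-GCGR replicate 5 or PBS replicate 5, and Hsd17b13 without anti-GCGR replicate 5 or PBS replicate 4. Calls were missed in 8 of the 11 fits for Ctps2, Gss and Slc22a3 and in 7 for G6pdx. Got1 was not called without anti-GCGR replicate 4 or PBS replicate 3 or 6, and Slc7a8 and Cldn2 were not called without PBS replicate 1. The other 13 list genes named passed in all 11 fits.

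Cell type markers were read beside these genes, since in whole liver fewer cells of a type and less RNA per cell cannot be told apart. The 8 hepatocyte markers had a mean log2 ratio of 5.78 to 6.02 on the antibody arrays and 5.85 to 6.07 on the PBS arrays, and none passed with all arrays. Markers of stellate cells and fibroblasts rose in 4 of 7, against 8.98% of all genes higher, with a mean of -0.96 to -0.29 on the antibody arrays and -1.35 to -1.02 on the PBS arrays. Endothelial markers rose in 2 of 7 (mean 2.63 to 3.05 with the antibody and 2.52 to 2.69 with PBS), Kupffer cell markers in 1 of 7 (3.69 to 4.24 with the antibody and 3.69 to 4.20 with PBS) and erythroid markers in 1 of 2 (4.26 to 4.65 with the antibody and 4.24 to 4.46 with PBS). With all arrays none passed among 5 cholangiocyte, 5 lymphocyte, 4 adipocyte, 3 pancreas and 3 kidney markers. Once anti-GCGR replicate 5 was left out, where 24.2% of all genes passed, 5 stellate and fibroblast, 3 endothelial, 2 Kupffer cell, 1 erythroid, 1 cholangiocyte and 1 pancreas marker rose, 1 kidney marker fell, and 1 hepatocyte marker rose and 2 fell. The part of these cells in the values of the 10 genes was not tested.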

How the data were processed

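Spots were quantified by Agilent's Feature Extraction software, given as version 11.5.1.1 per the file headers and as 11 in the submitters' processing notes. The deposited intensity values are median spot and background signals per the file headers, beside the scanner software's dye-normalized log10 ratio and spot flags (other values, 0 or 1, deposited beside them). The authors' deposited table of log2 ratios, of unstated processing, lay a median of 0.00329 from these values (absolute) and was an alternative; it is Cy5 over Cy3 with no centring of genes. Its column medians lay between -0.0028 and 0.0081.

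Groups came from sample titles. Signals were corrected with normexp (offset 50) and loess-normalized in limma 3.58.1 (R 4.3.3), and uneven spots were left out. Probes were named by RefSeq accession (GRCm38.p6 table, 26581 of 39429 probes). Probes needed a Cy5 signal well above background on 5 or more of the 11 arrays, and the brightest kept probe stood for its gene, giving 15974 genes. Groups were compared with lmFit and eBayes, two-sided, Benjamini-Hochberg over all genes, threshold 0.05, and single genes by exact permutation. Simulated data with 100 genes changed at each of 2 fold sizes checked the fit. Deviations of same-numbered arrays correlated at -0.125 to 0.141 over 5 pairs, above 0.1 in 2 of them, so numbers were not taken as pairs. Alternatives changed the normalization, background, filter, probe, batch, pairing and arrays.

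The 10 genes, lists and markers were chosen with earlier results of these data known. Genes named from lists were the 3 largest rises and 3 largest falls past the threshold; 1 of them is not reported here.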

Additional observations from a re-analysis of the deposited data

Results flagged for a closer look

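Among 39 genes and probes named in the text, 78 groups of values were screened for a single array far from the rest of its group by Dixon's criterion, which chance meets in about 1 in 20 groups. It was met 11 times, 10 of them by anti-GCGR replicate 5. Many of the genes were named for their group differences, and that array was already known to lie near PBS. The groups are also not independent, so the count cannot be set against 1 in 20. Among the 10 genes it was met by Aldh4a1, at 5.40 on that array against 4.16 to 4.57 on the other antibody arrays. High values on the same array were 3.21 for Got1, 4.92 for Kyat3, 6.91 for Abat, 5.03 for Oat and 3.89 for Lhpp, where the other antibody arrays reached 0.89, 3.91, 6.58, 2.57 and 2.40. Low values on it were 1.94 for Nadsyn1, 1.76 for Grhpr, 3.56 for Apoa4 and 6.80 for Hsd17b13, where the other antibody arrays started at 2.17, 2.18, 5.94 and 7.25. Apart from Apoa4, which lay below its lowest PBS array (3.99), each of these values lay inside the PBS range of its gene. The remaining value was PBS replicate 1 for Ggct, at 0.49 against 0.76 to 0.84 on the other PBS arrays. The cause was not tested.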

How the results depend on the processing

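Of the 10 genes 4 were called, 2 with the scanner software's ratio, 0 with the replicate block (6.55% of all genes called there, 10 arrays, anti-GCGR replicate 2 having no PBS partner) and 2 to 5 with 1 array left out. Over all genes the fits with 1 array left out called 782 to 2294 as higher and 458 to 1574 as lower. Under the block the log2 fold changes were -0.68 for Gls2, -0.73 for Aldh4a1, -0.49 for Prodh and -0.49 for Slc1a2 (limma adjusted p = 0.0594, 0.0544, 0.0598 and 0.120). Pairing arrays by replicate number rests on the number alone, and no antibody array but number 6 correlated best with its own number. Slc1a2 turned to 0.01 with the scanner software's ratio. Gclc turned to -0.029 there, to -0.095 with median centring and lay between -0.065 and 0.098 with 1 array left out. Cldn2 and Apoa4 turned to -0.12 and -0.29 with the scanner software's ratio.

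Under the replicate block the other glutamine and glutamate enzymes had 1 call in place of 3, amidotransferases 1 in place of 3, proline genes 2 in place of 4, glutathione genes 3 in place of 5, pericentral genes 2 in place of 6 and periportal genes 0 in place of 3. With median centring glutamine and glutamate enzymes had 8 calls, all lower, and periportal genes 10, of which 9 lower, where 13.4% of all genes were lower and 3.64% higher. With Cy5 alone they had 5, all lower, and 7, of which 6 lower, where 7.19% of all genes were lower and 7.34% higher. Periportal genes had 5 with slide as a block, 3 lower and 2 higher, where 17.5% of all genes passed. Glutathione genes had 3 with Cy5 alone, where 14.5% of all genes passed, and 3 with scaling between arrays, where 10.7% passed. With 1 array left out the calls ranged from 2 to 6 for glutamine and glutamate enzymes, 2 to 4 for amidotransferases, 2 to 6 for proline genes, 3 to 5 for transporters, 3 to 8 for glutathione genes, 3 to 9 for pericentral genes and 0 to 11 for periportal genes. The calls over all 15974 genes moved in the same fits. They ran from 782 higher and 458 lower without PBS replicate 1 to 2294 and 1574 without anti-GCGR replicate 5. The cause of these changes was not tested.

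Over 233 values of the 10 genes under alternatives, 196 kept direction and side of the threshold, 25 lost a call, 4 gained one and 8 turned sign. Dim Cy3 signal limits the ratios of 2 of the 3 Slc1a2 probes, which were not well above background in Cy3 on any array. The brightest Slc1a2 probe was well above it on all 11 arrays, but its Cy3 signal was only 6.49 to 7.23 (log2, quantile scaled). Its log2 fold change was -0.345 without background correction (limma adjusted p = 0.0965) and 0.01 with the scanner software's ratio.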
